A study of Homo sapiens with 4 samples.

Results

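The miRNAs miR-143, miR-145, miR-199a, miR-199b, miR-214 and miR-126, best known from smooth muscle, fibroblasts and endothelium, were followed in a carcinoma cell line that is not stromal. Members were chosen by name, whatever the strand, and 11 of the 1345 rows of the miRNA table belong to them. The rows of miR-199a-3p and miR-199b-3p hold the same value in each library, so the members make up 10 signals. The libraries come from HCT116, an epithelial colorectal carcinoma line with functional p53, in which doxycycline switches on a short hairpin RNA (shRNA) aimed at SAE2, the catalytic subunit of the SUMO-activating enzyme. A pair of independent hairpins, sh1 and sh2, gave 2 lines, and each condition has 1 library per line. The minus group (without induction, read from that word alone) has replicate 1 from sh1 and replicate 2 from sh2. The plus group (with induction, a treatment of 3 days per the labels' protocols) has replicate 2 from sh2 and replicate 1 from a library whose label gives no hairpin number, taken as sh1 by elimination. The protocol text is the same for every library, minus included. All groups share the HCT116 background and the shRNA cassette, and doxycycline-treated cells without an SAE2 hairpin were not analysed here, so the drug and the knockdown cannot be told apart. SAE2 mRNA is not measured by these libraries, and the labels do not say whether a line is 1 clone.

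A miRNA is cut from a hairpin in a longer transcript, and either strand of the hairpin stem can be loaded into Argonaute, where bases 2 to 8, the seed, pair with target mRNAs. miR-143 and miR-145 are made from neighbouring hairpins of one non-coding transcript that marks smooth muscle cells and fibroblasts, and their low level in colorectal tumours relative to normal mucosa is a classic observation. In HCT116, p53 is known to aid the Drosha step of miR-143, miR-145 and miR-16-1. miR-199a and miR-214 come from the mesenchymal transcript DNM3OS, and miR-126 lies in EGFL7, a gene of endothelial cells.

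The mature strands are shown from RefSeq (GRCh38.p14), with the seed in capitals, because the results turn on which strand and which family copy a read comes from. A mature sequence was matched for 10 of the 11 rows, the other row being miR-199b-5p.

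miR-143-3p: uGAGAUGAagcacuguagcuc
miR-143-5p: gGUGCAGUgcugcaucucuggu
miR-145-5p: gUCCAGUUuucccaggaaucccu
miR-145-3p: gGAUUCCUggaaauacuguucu
miR-199a-3p: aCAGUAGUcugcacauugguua
miR-199b-3p: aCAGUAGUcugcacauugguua
miR-199a-5p: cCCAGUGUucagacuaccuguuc
miR-214-3p: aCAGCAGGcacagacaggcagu
miR-126-3p: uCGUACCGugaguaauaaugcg
miR-126-5p: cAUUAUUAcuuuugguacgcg

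These 10 strands hold 9 distinct seeds, and among them miR-199a-3p and miR-199b-3p are the only pair that shares one. miR-199b-5p is not counted here, although the MIR199B hairpin printed below holds the seed bases of miR-199a-5p, CCAGUGU. The pair of 3p strands has 0 mismatches over 22 bases, so a read cannot be assigned to either copy. The shared strand is in capitals in the 3 hairpins that can give rise to it, printed to show where the copies differ around it.

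MIR199A1: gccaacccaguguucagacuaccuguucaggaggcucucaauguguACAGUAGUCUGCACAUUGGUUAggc
MIR199A2: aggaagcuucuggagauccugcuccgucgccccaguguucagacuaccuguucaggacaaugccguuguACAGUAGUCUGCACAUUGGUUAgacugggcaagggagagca
MIR199B: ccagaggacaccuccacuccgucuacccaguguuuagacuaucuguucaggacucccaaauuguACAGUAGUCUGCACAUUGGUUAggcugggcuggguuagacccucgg

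In GRCh38.p14 coordinates, MIR143 lies at chr5:149428918-149429023 and MIR145 at chr5:149430646-149430733, on the plus strand and 1622 bases apart. GENCODE 29 places the first in an exon and the second in an intron of CARMN, a long non-coding RNA gene, each spanned by 1 transcript. MIR214 (chr1:172138798-172138907) and MIR199A2 (chr1:172144535-172144644) lie on the minus strand within DNM3OS, 5627 bases apart, MIR214 in an exon and MIR199A2 in an exon of 1 and an intron of another transcript. MIR199A1 (chr19:10817426-10817496) and MIR199B (chr9:128244721-128244830) lie in introns of the dynamin genes DNM2 and DNM1, on the strand opposite to the gene. MIR126 (chr9:136670602-136670686) is intronic in EGFL7, on the gene's own strand. The miRNA table gives names only, and these positions were not used in counting.

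Values are normalised read counts, with no division by length, since a read spans the whole of so short an RNA. The libraries summed to between 9700472 and 10519207, and 1 read was worth an estimated 0.9445 to 1.028 normalised counts. The floor of 3 reads then lies between 2.83 and 3.08. The epithelial markers checked were the miR-200 family, miR-192, miR-194, miR-215 and miR-375, whose 15 signals summed to between 276211 and 326295 per library. The stromal members summed to 23373 and 23318 in the minus libraries and to 19964 and 23328 in the plus libraries, so the epithelial sum was 11.8 to 16.3 times larger. Blood markers summed to between 1009 and 1230, most of it miR-486-5p, and striated muscle markers to between 219.6 and 282, most of it miR-499a-5p. The muscle miRNA miR-133a stood at 0 in both minus libraries and at 1.03 and 2.03 in the plus libraries, and the myeloid miRNA miR-223-3p at 2.08 to 5.10 over all 4. In bulk RNA, fewer cells with a miRNA and less of it per cell cannot be told apart.

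**Figure D1:**
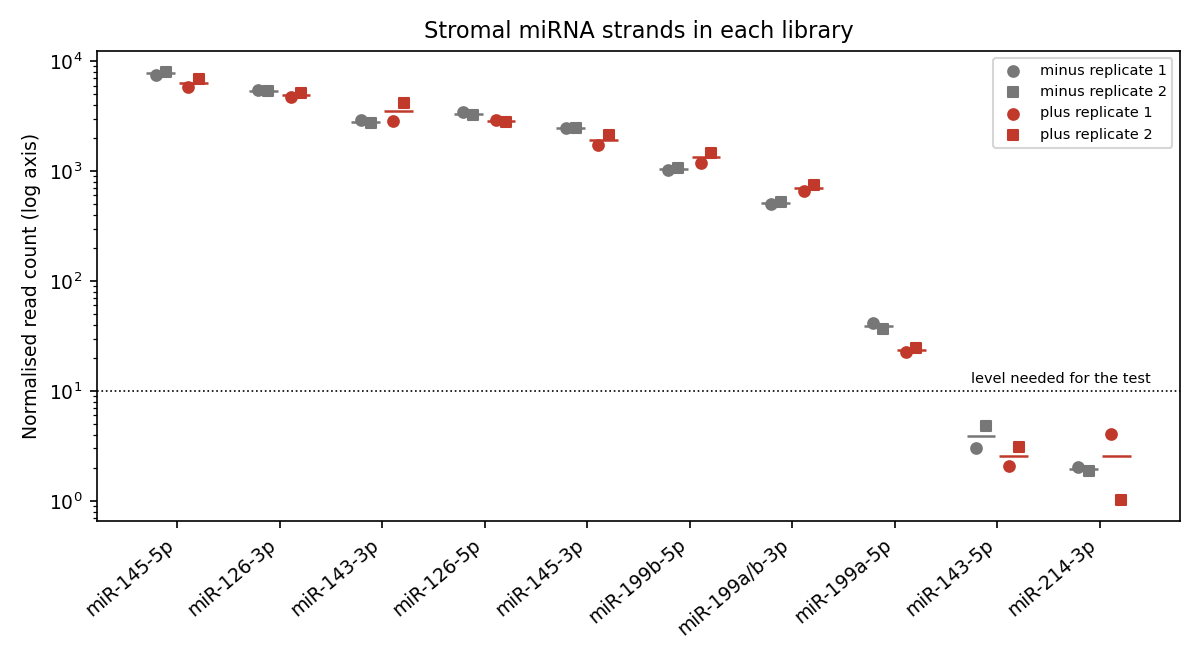
Normalised read count, on a log axis, of the 10 stromal signals in each of the 4 libraries (grey minus, red plus; circles replicate 1, squares replicate 2), with bars at the mean of each group and a dotted line at the level of 10 needed for the test. The signals run from miR-145-5p, at 5843 to 7944, down to miR-214-3p, at 1.03 to 4.09.

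The 10 signals spanned the profile from well expressed to near the floor. By mean over the 4 libraries, miR-145-5p was the highest (7042, rank 87 of 1345), then miR-126-3p (5174, rank 96), miR-143-3p (3154.1, rank 122), miR-126-5p (3095, rank 123) and miR-145-3p (2198, rank 137). miR-199b-5p (1187, rank 171) and the shared miR-199a/b-3p (609) followed. Far below lay miR-199a-5p (31.4, rank 533), miR-143-5p (3.23, rank 920) and miR-214-3p (2.26, rank 964). The ranges over the 4 libraries of neighbours in this order overlapped for miR-143-3p and miR-126-5p and for miR-143-5p and miR-214-3p, and for no other neighbours. miR-143-3p was thus lower than miR-145-5p, its partner from the same gene, in each library.

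The comparison of plus with minus asks which miRNAs change with induction of the SAE2 hairpin. Of the 8 signals with a mean of at least 10, 3 rose, 2 fell and 3 did not pass (limma on log2 of the value plus 1, Benjamini-Hochberg adjusted p under 0.05 over all 709 rows tested). Among all tested rows 13.4% rose and 15.1% fell. The median log2 change was −0.17 over the 8 signals and −0.03 over all tested rows. The groups of 2 libraries did not overlap for 7 of the 8, with plus above minus in 2 and below in 5, against 29.1% above and 33.9% below among all tested rows. Members of one gene, and both strands of one hairpin, are not independent of each other, and 8 signals are too few to read these shares as a property of stromal miRNAs.

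**Figure D2:**
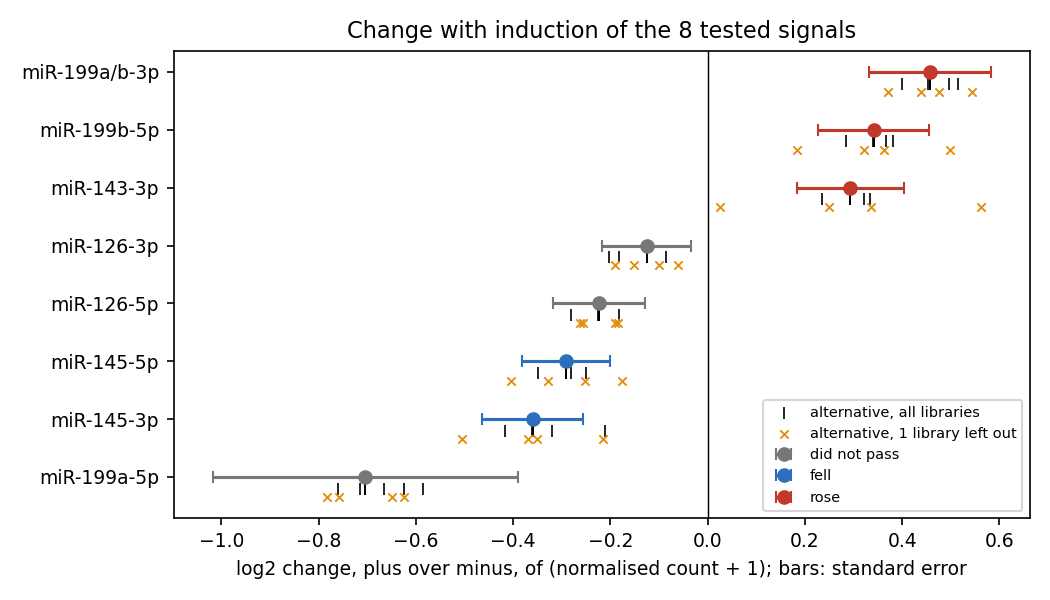
Log2 change, plus over minus, of the 8 tested signals with its standard error (red rose, blue fell, grey did not pass), with ticks for the alternatives that keep all libraries and orange crosses for those that leave out 1 library. The changes run from −0.70 for miR-199a-5p to 0.46 for miR-199a/b-3p, and miR-143-3p reaches 0.03 when plus replicate 2 is left out.

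miR-145 fell on both strands. miR-145-5p, the main strand, which in smooth muscle favours differentiation, stood at 7535 and 7944 in the minus libraries, replicates 1 and 2, against 5843 and 6845 in plus, replicates 1 and 2. Both plus libraries were below both minus libraries. The fall was from 7739.7 ± 289 to 6344 ± 709 (SD, n = 2 each), a log2 change of −0.29 (standard error, SE, 0.09, limma adjusted p = 0.0125). Its partner miR-145-3p stood at 2449 and 2481 in the minus and at 1738 and 2123 in the plus libraries, again without overlap. It fell from 2465 ± 22.4 to 1930.1 ± 272 (SD, n = 2 each), with a log2 change of −0.36 (SE 0.10, limma adjusted p = 0.00729). In both strands plus replicate 1 was the lower of the plus libraries, and without it the log2 changes were −0.18 (limma adjusted p = 0.198) and −0.22 (limma adjusted p = 0.151). The balance of the strands moved little. miR-145-5p made up 75.8% ± 0.518 of the hairpin's reads without induction and 76.7% ± 0.529 with it (SD, n = 2 each).

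miR-143-3p, the main strand of its hairpin, was not lower with induction, unlike its neighbour. Its minus values were 2892 and 2724 and its plus values 2857 and 4143, replicate 1 first. Plus replicate 1 lay between the minus libraries, so the groups overlapped and plus replicate 2 alone was high. The test called a rise, from 2808 ± 118 to 3500.15 ± 909 (SD, n = 2 each), with a log2 change of 0.29 (SE 0.11, limma adjusted p = 0.0414). Without plus replicate 2 the log2 change was 0.03 (limma adjusted p = 0.843), and without plus replicate 1 it was 0.56 (limma adjusted p = 0.0746). The call was also lost with equal totals (0.24, limma adjusted p = 0.188) and when the fit was limited to means of at least 100 (limma adjusted p = 0.152). miR-143-5p, the discarded strand, was close to the floor, with about 3 and 5 reads without induction and 2 and 3 with it. Its plus to minus ratio of 0.63 had an exact Clopper-Pearson interval, at 95% and scaled by depth, from 0.162 to 2.19. miR-143-3p made up between 99.83% and 99.93% of the hairpin's reads per library, whereas in miR-145 both strands were abundant.

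A ratio within a library does not depend on a scaling factor common to all its rows. An adjustment that differs between rows would not cancel. The ratio of miR-143-3p to miR-145-5p was 0.384 and 0.343 without induction and 0.489 and 0.605 with it, replicate 1 first. Each plus library was above each minus library, also plus replicate 1, in which miR-143-3p itself was not raised. The log2 ratio differed by 0.58 between the groups. The exact two-sided permutation test gave p = 0.3333, the smallest that 2 against 2 libraries can give, so the design cannot bring this ratio past 0.05. Leaving out plus replicate 2 gave 0.43 and leaving out plus replicate 1 gave 0.74.

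**Figure D3:**
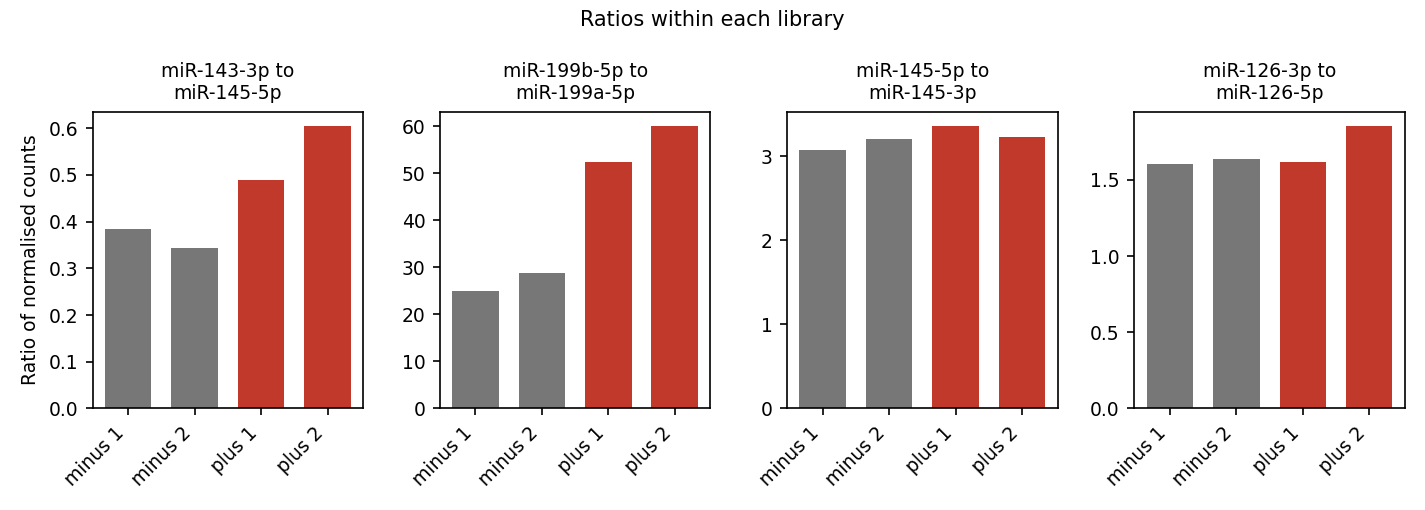
Ratio of normalised read counts within each library, with linear axes from 0 and a panel for each pair of strands (grey minus, red plus, 1 bar per library). The plus bars stand above the minus bars for miR-143-3p to miR-145-5p and for miR-199b-5p to miR-199a-5p, at 52.3 and 60.1 against 24.9 and 28.7, while the ratios within the miR-145 and miR-126 hairpins are nearly level.

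The miR-199 family, which in fibroblasts takes part in the mesenchymal program, rose in its abundant strands. The shared miR-199a/b-3p stood at 506 and 519 in the minus and at 663 and 748 in the plus libraries, with no overlap. It rose 1.38-fold, from 513 ± 9.55 to 705 ± 59.8 (SD, n = 2 each), a log2 change of 0.46 (SE 0.13, limma adjusted p = 0.00484). miR-199b-5p stood at 1029 and 1059 in the minus and at 1186 and 1475 in the plus libraries, likewise apart. It rose 1.27-fold, from 1044 ± 21.1 to 1331 ± 204 (SD, n = 2 each), with a log2 change of 0.34 (SE 0.11, limma adjusted p = 0.0198). Plus replicate 2 was the higher one, and without it the log2 change was 0.18 (limma adjusted p = 0.204). The call of miR-199b-5p was also lost with equal totals (0.28, limma adjusted p = 0.0829).

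miR-199a-5p, which is specific to the MIR199A hairpins, was much rarer and lay lower in the plus libraries. It stood at 41.3 and 36.9 in the minus and at 22.7 and 24.55 in the plus libraries, or about 41 and 39 against 22 and 24 reads. The groups did not overlap, but the log2 change of −0.70, with a standard error of 0.31, did not pass (limma adjusted p = 0.0888). From 80 against 46 reads the ratio was 0.58 (95% interval 0.394 to 0.844, for counting error only). The ratio of miR-199b-5p to miR-199a-5p went from 24.9 and 28.7 in the minus to 52.3 and 60.1 in the plus libraries, a 2.06-fold shift (exact two-sided permutation p = 0.3333). Over the 5 ratios computed, adjusted p-values were 0.417, or 0.667 for miR-126-3p to miR-126-5p. miR-199b-5p thus made up most of the 5p reads of the family in every library. The ratio of miR-199b-5p to the shared 3p strand was 2.03 and 2.04 without induction and 1.79 and 1.97 with it. This pair of strands was compared after its values were seen, and how the counting treats reads that differ by only a few bases between the copies was not tested.

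miR-214-3p, made from the same DNM3OS transcript as miR-199a-2 and linked to fibrosis, was near the floor. It had about 2 and 2 reads without induction and 4 and 1 with it (ratio 1.26, 95% counting interval 0.271 to 6.35), so neither a rise nor a fall was detectable at this depth. MIR3120 lies opposite MIR214, in an intron of DNM3, and its miR-3120-3p covers 21 bases of the miR-214-5p position on the other strand.

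miR-3120-3p: cACAGCAAguguagacaggca

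miR-3120-3p had more reads than miR-214-3p in each library, with 16 and 13 without induction and 7 and 8 with it. Its log2 change of −0.79 did not pass (limma adjusted p = 0.236), and the ratio of its reads was 0.522 (95% counting interval 0.260 to 1.01).

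miR-126, which in endothelium sustains the response to VEGF, was abundant on both strands and did not pass on either. miR-126-3p stood at 5490.1 and 5305 in the minus and at 4728 and 5175 in the plus libraries. Its mean was 5397 ± 131 against 4952 ± 316 (SD, n = 2 each), a log2 change of −0.13 (SE 0.09, limma adjusted p = 0.319). miR-126-5p stood at 3426 and 3242 in the minus and at 2921 and 2789.8 in the plus libraries. Its mean was 3334 ± 129.8 against 2855 ± 92.6 (SD, n = 2 each), with a log2 change of −0.22 (SE 0.10, limma adjusted p = 0.0737). For both strands the plus libraries were below the minus libraries. With the line as a block the log2 change of miR-126-5p, which stays at −0.22, passed (limma adjusted p = 0.0471), and it passed with equal totals as well, at −0.28 (limma adjusted p = 0.0488). miR-126-3p made up 61.8% ± 0.346 of the hairpin's reads without induction and 63.4% ± 2.23 with it (SD, n = 2 each).

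Each of the 5 calls was lost without a mean-variance trend, without a minimum level and under quantile normalization, and the direction of each was kept in all 14 alternatives. With 1 library left out no call stood except that of miR-199a/b-3p without minus replicate 2 (limma adjusted p = 0.0327), whose adjusted p otherwise lay between 0.0603 and 0.0889. The other 4 then ranged from 0.0573 to 0.198 for miR-145-5p, 0.0518 to 0.151 for miR-145-3p, 0.0788 to 0.204 for miR-199b-5p and 0.0746 to 0.843 for miR-143-3p.

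**Figure D4:**
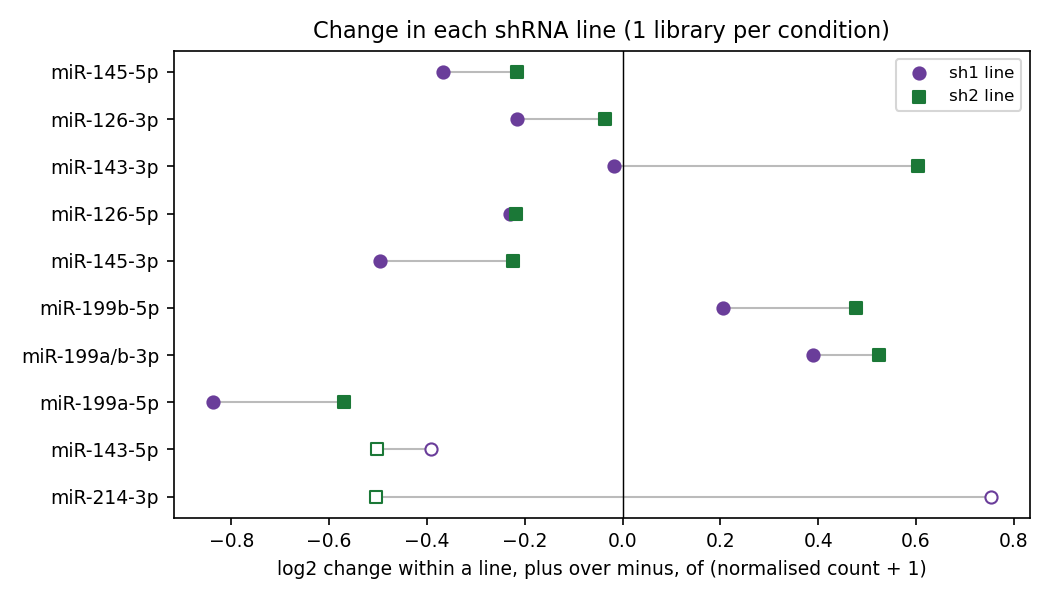
Log2 change within each shRNA line, plus over minus, of the 10 signals, with circles for the sh1 line and squares for the sh2 line, open where the level is below that of the test. miR-143-3p lies at −0.02 in one line and 0.60 in the other, while the other 7 tested signals have the same sign in both.

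Taken line by line, with 1 library per condition and no test, 7 of the 8 tested signals moved in the same direction in both lines, as did 519 of all 709 tested rows (73.2%). miR-145-5p changed by −0.37 on the log2 scale in the sh1 line and by −0.21 in the sh2 line, and miR-145-3p by −0.50 and −0.22. The miR-199a/b-3p signal changed by 0.39 and 0.52, miR-199b-5p by 0.21 and 0.48, and miR-199a-5p by −0.84 and −0.57. miR-126-5p was alike in the lines, at −0.23 and −0.22, and miR-126-3p stood at −0.22 and −0.04. miR-143-3p was the exception among the tested signals, at −0.02 in the sh1 and 0.60 in the sh2 line.

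Other miRNAs with the seeds of members were scarce. Of the other miRNAs that share bases 2 to 8 with a member in RefSeq, miR-3129-5p (seed of miR-199a-3p) and miR-3619-5p (seed of miR-214-3p) were in the table. Both are shown for comparison of the seed.

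miR-3129-5p: gCAGUAGUguagagauugguuu
miR-3619-5p: uCAGCAGGcaggcuggugcagc

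miR-3129-5p had 9 reads without induction and 5 with it, a ratio of 0.56 (95% counting interval 0.148 to 1.86). miR-3619-5p had 55 and 45, a ratio of 0.825 (0.544 to 1.25), and exceeded miR-214-3p in each library. Between these names, miR-3619-5p held most of the reads with the miR-214 seed.

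Around the members, lists of related miRNAs moved in part, and their counts stand against 13.4% risen and 15.1% fallen among all tested rows. Among the 6 tested strands tied to p53-dependent processing, which include miR-143 and miR-145, 1 rose and 3 fell, with a median log2 change of −0.20. The fall outside the members was miR-16-1-3p, from 65.8 ± 4.74 to 30.3 ± 6.35 (SD, n = 2 each, log2 change −1.11, limma adjusted p = 0.00166), while miR-16-5p, at 0.07, did not pass (limma adjusted p = 0.520). The list also holds miR-16-2-3p, a strand of another miR-16 hairpin than miR-16-1, at −0.12 (limma adjusted p = 0.460). Of 11 further strands known from smooth muscle and fibroblasts, 2 rose and 1 fell, with a median of −0.03. The rises were miR-22-3p at 0.66 (limma adjusted p = 9.63e-08) and miR-22-5p at 0.99 (limma adjusted p = 4.53e-06), and the fall was miR-27b-5p at −0.39 (limma adjusted p = 0.0135). The 10 further strands known from endothelium had 2 rises, miR-221-3p at 0.22 and miR-222-3p at 0.22 (limma adjusted p = 0.0438 and 0.0440), with a median of 0.05. The other 8 did not pass and ran from −0.24 for miR-503 to 0.26 for miR-139-3p. Among them miR-222-5p, the other strand of the miR-222 hairpin, was at −0.21. None of the 4 tested blood strands passed in limma, nor did any have an unadjusted p under 0.05, and the highest, miR-486-5p, was at 0.05. The tested muscle strand, miR-499a-5p, was at −0.27 (limma adjusted p = 0.232). Of the 14 epithelial strands 6 rose, and the median of the list was 0.25. The most abundant of the 6 was miR-200b-3p, from 67098 ± 2021 to 81366 ± 501 (SD, n = 2 each, log2 change 0.28, limma adjusted p = 0.00729). The other rises were miR-200a-3p at 0.26, miR-200b-5p at 0.35, miR-194-5p at 0.72, miR-192-5p at 0.78 and miR-215 at 0.71. The remaining 8 did not pass, among them miR-200c-3p, the most abundant of the list, at 0.13 (limma adjusted p = 0.257). Only miR-200c-5p, at −0.29, and miR-141-5p, at −0.26, had negative changes. Many of these lists hold miRNAs that carcinoma cells also make at high level, and whether the lists differ from each other was not tested. No call in any of these lists stood without a mean-variance trend or without a minimum level. Under quantile normalization the calls of miR-16-1-3p, miR-22-3p, miR-27b-5p, miR-222-3p and 3 of the 6 epithelial rises were lost, and with equal totals those of miR-221-3p, miR-222-3p, miR-200a-3p and miR-200b-5p. Median-ratio scaling removed the call of miR-221-3p, and a minimum mean of 100 removed that of miR-222-3p. The median of the endothelial list was −0.01 with equal totals. Without plus replicate 1 none of the calls outside the members stood, and without plus replicate 2 that of miR-22-3p alone did. Without minus replicate 1 the epithelial rises were 2 (miR-192-5p and miR-194-5p) and without minus replicate 2 they were 3 (these and miR-215), while both endothelial rises were lost in either case. The call of miR-27b-5p was lost without minus replicate 1, and those of miR-16-1-3p and both miR-22 strands stood with either minus library left out.

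**Figure D5:**
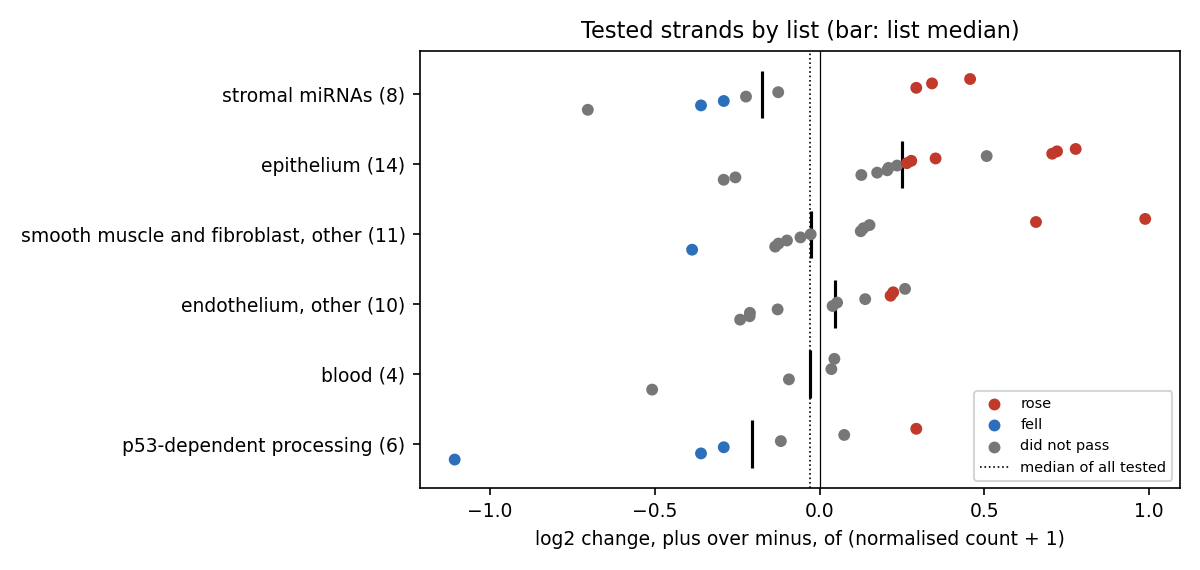
Log2 change with induction of each tested strand in the stromal set and in 5 further lists (number of tested strands in parentheses; red rose, blue fell, grey did not pass), with a bar at each list median and a dotted line at the median of all tested rows. The bar lies at −0.17 for the stromal miRNAs and at 0.25 for the epithelial list, and miR-143 and miR-145 appear in both the stromal and the p53 list.

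Other miRNAs with a mean of at least 100 came close to the members' profiles over the 4 libraries, by the root mean square difference of log2 values centred on each miRNA's own mean. For miR-145-5p the nearest of 378 were miR-618 (0.033) and miR-100-5p (0.044), and 46 lay within 0.1. For miR-199a/b-3p they were miR-561-5p (0.044) and miR-9-5p (0.046), with 25 within 0.1, and for miR-126-3p they were miR-21-3p (0.023) and miR-425-5p (0.026), with 69 within 0.1. For miR-143-3p none lay within 0.1, and the nearest were miR-642a-3p (0.104) and miR-378c (0.106). With 4 libraries such nearness is a description only.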

How the data were processed

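Small-RNA libraries of 4 HCT116 cultures (2 minus, 2 plus) were measured. The deposited table holds, for each mature miRNA, a signal that is read here as reads adjusted by the authors for library size. The values do not follow a single factor per library. In minus replicate 2, values near 1 read differed between rows, at 0.86 for miR-3064-3p and 0.96 for miR-1305. miR-1299 stood at 0.01 in both plus libraries. How the signal was normalised is not stated, and the reading rests on the values. TopHat2 2.0.8b, edgeR, hg19 and GRCh37 stand in the submitters' processing notes with no role, and cutadapt trimming is known per the labels. Which counter and annotation were used is not given in the sources used here. Column names write sh4 where titles write sh2, and columns were matched by library number and index.

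The worth of 1 read was picked per library as the step that put most low values near whole multiples. The smallest values, such as 0.01, were left out. With that step, between 86.9% and 100% of a library's remaining values under 60 fell within 0.1 of whole multiples. The lowest share, 86.9% in minus replicate 2, was too low to take the values as counts, and no count model was run. That step gave 9566036 to 10302847 estimated reads per library, used for reads, intervals and floors, which cover counting error only, since reads are not independent molecules. Estimated reads differed within groups (chi-square per degree of freedom 23.2 for minus, 78.7 for plus), so each library counts as its own. No source speaks of separate cultures beyond the 2 lines. The limma p-values rest on a spread between these libraries that is taken mostly from all tested rows of like level. A miRNA's own spread adds 2 degrees of freedom against 43.0 from the trend.

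The fit, limma 3.58.1 in R 4.3.3, used log2(value + 1) and a mean-variance trend for the 709 rows with a mean of at least 10. It was two-sided, with Benjamini-Hochberg adjustment over all of them and a threshold of 0.05, and had 2 residual and 43.0 prior degrees of freedom. A fold change on this scale understates that of low miRNAs. The fit was tested on simulated data. Same-numbered libraries share an shRNA line (plus replicate 1 by elimination), and their deviations from the group means correlated at 0.056. Alternatives covered the pseudocount, level minimum, scaling, trend, identical rows, the line as a block and each library left out. All member strands are named, with the 2 nearest profiles of 4 main strands, seed sharers in the table and, per list, up to 6 strands that passed or otherwise the highest. Members and lists were chosen with earlier results of these data known. Sequences are from RefSeq (GRCh38.p14), hosts from GENCODE 29.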

Additional observations from a re-analysis of the deposited data

Results flagged for a closer look

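miR-143-3p had log2 changes of opposite sign in the 2 shRNA lines, but that of the sh1 line was close to 0, at −0.02, against 0.60 in the sh2 line. miR-214-3p differed in sign as well, at 0.75 in the sh1 line and −0.50 in the sh2 line, from 1 to 4 reads per library. The difference between the lines was not tested, as each has 1 library per condition, and the sh1 line was assigned by elimination for plus replicate 1.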

How the results depend on the processing

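Counts of signals that rose and fell, 3 and 2 of 8, were the same with a pseudocount of 0.5 or 5, median-ratio scaling or identical rows counted once, and were 2 and 2 of 7 with a minimum mean of 100. With equal totals 1 rose and 3 fell. In limma 0 rose and 0 fell with no minimum mean (1 up and 4 down at an unadjusted p under 0.05), with quantile normalization (1 up and 3 down) and with no trend (1 up and 1 down). With 1 library left out, 0 to 1 rose and 0 fell in each of the 4 fits (1 to 3 up and 1 to 4 down at an unadjusted p under 0.05). Where that leaves 1 library in a group, it is assumed to vary like the other group. With the replicate block (the shRNA line) 3 rose and 3 fell, the added fall being miR-126-5p, and no other call of a member changed. Over all rows the calls numbered 202, against 5 with no minimum mean, 5 with no trend, 101 with quantile normalization, 95 and 115 without minus replicates 1 and 2, and 7 and 8 without plus replicates 1 and 2. The cause was not tested. The ratio of miR-143-3p to miR-145-5p differed by a log2 of 0.58, and by 0.43 to 0.74 with 1 library left out. Of the single strands' changes under the alternatives, 72 kept their side of the threshold, 37 lost a call and 2 gained one, and none reversed direction. The 72 include signals that passed neither in the main fit nor in the alternative, while the 37 all concern the 5 called signals. Depth limits miR-143-5p and miR-214-3p, with 2 to 5 and 1 to 4 reads per library.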
